A study of Mus musculus with 18 samples.

Results

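The hypoxia response and glycolysis were followed through 37 mouse genes in 4T1 cells in which the translation factor DAP5 was knocked down. The genes were taken by symbol from a list covering the hypoxia-inducible transcription factors, the oxygen sensors that control them, their targets, the enzymes of glycolysis and the handling of pyruvate and lactate. All 37 were found among the 35976 symbols counted in each library. After the filter on low counts, 35 of the 37 were tested among 15072 genes. Epas1, another oxygen-regulated alpha subunit, and Slc16a3, a lactate exporter also called MCT4, did not pass that filter.

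4T1 is a mammary carcinoma line from a BALB/c mouse, and stands in here for triple-negative breast cancer. Cells carried a hairpin against Dap5 (shDap5) or a non-silencing hairpin (NSi), and both arms were kept in doxycycline at 2 µg/ml for 6 days. DAP5, the product of Eif4g2, is a relative of eIF4G that lacks the site for the cap-binding protein eIF4E, and the study asked about translation that does not depend on eIF4E or mTOR. Polyadenylated RNA was taken from unfractionated lysate (input) and, after a sucrose gradient, from pooled light and pooled heavy polysomes. There were 3 libraries in each of the 6 groups: shDap5 input, NSi input, shDap5 light, NSi light, shDap5 heavy and NSi heavy. The labels name 1 hairpin per arm and no uninduced cells, so an effect of the knockdown and a difference between the cells of the 2 arms cannot be told apart. Oxygen was not varied, as far as the labels say.

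When oxygen is plentiful, prolyl hydroxylases (Egln1, Egln2 and Egln3) mark the alpha subunits of hypoxia-inducible factor (HIF), and the VHL protein then has them degraded. When oxygen is short, HIF1A pairs with ARNT and binds DNA at a short core sequence beside genes for glucose uptake, glycolysis and lactate export, and beside Egln3 itself. Many tumour lines run glycolysis at a high rate even in air, with lactate dehydrogenase A turning pyruvate into lactate and carbonic anhydrase 9 handling the acid outside the cell.

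Total counts ran from 30385863 to 71331978 per library. Eif4g2 stood at 592, 340 and 671 CPM (counts per 1000000, scaled by TMM) in shDap5 inputs, against 799, 759 and 852 CPM in NSi inputs. Its log2 change in input was -0.59 (SE 0.26), which did not pass the test (adjusted p = 0.202, edgeR's quasi-likelihood test over all genes, used throughout). On light and on heavy polysomes Eif4g2 fell, by 1.60 (SE 0.26, adjusted p = 0.00204) and by 1.45 (SE 0.26, adjusted p = 0.00349) on the log2 scale. With the replicate number as a block within each fraction, the input change was -0.64 (adjusted p = 0.00454). It was -0.35 (adjusted p = 0.419) on leaving out the second shDap5 input. The second shDap5 input stood apart from the other shDap5 inputs: it had the lowest Eif4g2, and 32 of the 35 members lay below the NSi mean in it, against 19 and 15 members in the other shDap5 inputs. Over all genes 52.4% lay below the NSi mean in it, against 44.3% and 43.9% in the others. Of the RNAs that stay in the nucleus, Neat1 had 266, 852 and 219 CPM and Malat1 321, 448 and 325 CPM in shDap5 inputs, against 377, 654 and 311 CPM for Neat1 and 323, 307 and 290 CPM for Malat1 in NSi inputs. On light polysomes Malat1 had 40.4, 22.9 and 20 CPM in shDap5 and 59.7, 54.3 and 53 CPM in NSi libraries, without overlap. The part of these RNAs in the members' changes was not tested. The calls and the median in input are therefore also given without the second shDap5 input.

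The mammary epithelial markers summed to 4535 to 5093 CPM in shDap5 inputs, against 3115 to 3464 CPM in NSi inputs, led by Krt18. The mesenchymal list, led by Fn1 and Vim, summed to 2721 to 3455 CPM in shDap5 inputs, against 5381 to 6350 CPM in NSi inputs. These lists moved between the arms together with the members below, and their part in those results was not tested. Markers of muscle and neurons, where Eno2, Eno3, Aldoc and Ldhb are also abundant, summed to at most 0.867 CPM in shDap5 inputs, against 0.82 CPM in NSi inputs. On polysomes the highest such sum was 9.75 CPM, in 1 NSi light library. In RNA from whole cultures, fewer cells of a kind and less RNA per cell cannot be told apart.

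Upstream windows from RefSeq on build GRCm38.p6, from 250 bases before to 50 bases after each start, were found for 33 of the 37 members (47 windows). The letters ACGTG, the usual core of a HIF site, were searched on both strands, and so were the letters GCGTG. The first run of letters was in 25 of the 47 member windows (53.2%) and in 19.6% of the 32851 windows of all genes. GCGTG was in 27 member windows (57.4%) and in 32.4% of all windows. The list was drawn up to hold targets of HIF, and windows of 1 gene can overlap, so these shares are no test. Printed here are the windows of the 3 members that changed between the arms, and, of the 2 windows of Ldha, the partner of Ldhb, the one with more matches, added after its values were seen. The capitals mark either run of letters on either strand, and each window is written 5′ to 3′ in the direction of its gene. Egln3, an oxygen sensor, lies on the minus strand (chr12:54203825-54204124), as do Eno2, an enolase (chr6:124769624-124769923), and Ldhb, a lactate dehydrogenase (chr6:142507908-142508207). Ldha, the other lactate dehydrogenase, lies on the plus strand (chr7:46845554-46845853).
Egln3: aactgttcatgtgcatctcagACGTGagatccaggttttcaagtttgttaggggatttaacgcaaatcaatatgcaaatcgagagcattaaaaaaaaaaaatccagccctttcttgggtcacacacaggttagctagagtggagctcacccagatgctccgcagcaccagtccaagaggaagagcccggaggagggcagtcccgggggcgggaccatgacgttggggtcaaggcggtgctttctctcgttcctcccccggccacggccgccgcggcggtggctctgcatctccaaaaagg
Eno2: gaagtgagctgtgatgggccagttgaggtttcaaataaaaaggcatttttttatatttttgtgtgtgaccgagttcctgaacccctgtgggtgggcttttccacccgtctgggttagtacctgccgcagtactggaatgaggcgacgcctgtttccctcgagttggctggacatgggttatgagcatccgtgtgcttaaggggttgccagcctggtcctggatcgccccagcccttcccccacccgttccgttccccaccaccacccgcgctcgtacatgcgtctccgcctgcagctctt
Ldhb: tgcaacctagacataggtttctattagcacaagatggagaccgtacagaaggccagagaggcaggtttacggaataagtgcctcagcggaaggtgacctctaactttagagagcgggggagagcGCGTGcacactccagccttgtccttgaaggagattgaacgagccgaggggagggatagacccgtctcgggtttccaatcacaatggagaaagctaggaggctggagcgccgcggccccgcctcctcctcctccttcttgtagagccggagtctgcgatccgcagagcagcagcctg
Ldha: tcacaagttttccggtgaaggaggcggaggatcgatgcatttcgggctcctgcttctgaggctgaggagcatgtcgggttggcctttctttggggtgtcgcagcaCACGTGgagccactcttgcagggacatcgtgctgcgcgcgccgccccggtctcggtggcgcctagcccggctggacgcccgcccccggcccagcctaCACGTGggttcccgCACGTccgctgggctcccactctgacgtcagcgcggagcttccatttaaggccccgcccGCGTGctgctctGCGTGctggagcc
The Egln3 window holds 1 ACGTG, 229 bases before the start, and the Ldhb window 1 GCGTG, 126 bases before it. The Eno2 window holds neither, which says only that these letters are not in these 300 bases. The Ldha window holds 5 ACGTG and 2 GCGTG, where CACGTG reads the same on both strands and counts as 2. A match is a run of letters and not a binding site.

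Divided by exon length, the most abundant members of the input in both arms were Pkm (pyruvate kinase), Ldha, Aldoa (aldolase A) and Tpi1 (triose phosphate isomerase). That order is of the counts as deposited, whose treatment of reads shared between gene copies is not given. Pkm averaged 616 ± 174 CPM per kb in shDap5 inputs and 665 ± 33.8 CPM per kb in NSi inputs (SD, n = 3 each). Ldha averaged 538 ± 262 and Aldoa 412 ± 81.6 CPM per kb in shDap5 inputs, against 478 ± 40.3 and 473 ± 20.2 CPM per kb in NSi inputs. For none of these 3 did the gap between the arms exceed the larger of the SDs. At the low end stood Slc2a3 (the glucose transporter GLUT3), at 0.0574 CPM per kb in shDap5 and 0.0688 CPM per kb in NSi inputs. Epas1 had 0 to 5 counts in any library, and Slc16a3 had 0 to 2 counts and none in any input. Among the members, the hypoxia-inducible alpha subunit and the lactate transporter with enough counts to test were thus Hif1a and Slc16a1 (MCT1).

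Of the 35 members tested, 3 were lower and none was higher in shDap5 than in NSi cells, and these were Egln3, Eno2 and Ldhb in the input, on light and on heavy polysomes alike. The 3 made up 8.57% of the members in each fraction. Over all 15072 genes, 6.95% were called in input, 3.47% on light and 3.95% on heavy polysomes, with 3.94%, 1.64% and 1.92% called lower and 3.01%, 1.83% and 2.03% called higher. The median member lay at -0.11 in input, -0.17 on light and -0.32 on heavy polysomes on the log2 scale, where the median of all genes tested was 0.05, -0.01 and 0.01. Of the members, 23, 26 and 27 lay below 0, as did 43.7%, 51.8% and 48.4% of all genes. The 3 shDap5 libraries lay below the 3 NSi libraries without overlap for 7, 6 and 8 members in input, light and heavy, where 16.9%, 9.64% and 8.11% of all genes did so. For no member did they lie above without overlap, as 20.2%, 10.2% and 7.6% of all genes did. At an unadjusted p under 0.05 there were 5, 10 and 12 members, while 19.5%, 16.1% and 17.2% of all genes reached that level. Leaving out 1 library moved the count of members on light polysomes to between 3 and 11. It was 3 and 8 without NSi light replicates 1 and 2, and 5 and 6 without shDap5 light replicates 2 and 3. It was 11 without NSi light replicate 3 or shDap5 light replicate 1. On heavy polysomes the count moved to 6 without NSi heavy replicate 1 or shDap5 heavy replicate 3. It was 7 without NSi heavy replicate 2 and 8 without shDap5 heavy replicate 2. It was 14 without NSi heavy replicate 3 and 15 without shDap5 heavy replicate 1. In these fits 12.3% to 17.1% of all genes reached that level on light and 12.6% to 22.5% on heavy polysomes.

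Libraries of the same replicate number deviated together within a fraction, least in input, though no label says what a number shares. The same counts are therefore also given with the number as a block within the fraction. There, 7 members were lower in input, 8 lower and 2 higher on light polysomes, and 15 lower on heavy polysomes. Over all genes that fit called 22.1%, 16.1% and 18.3%, with 10.5%, 7.5% and 8.01% lower and 11.6%, 8.63% and 10.3% higher. Egln3, Eno2 and Ldhb were among the lower members in each fraction. Without the second shDap5 input, the calls in input were the same 3 genes, and the median member lay at -0.02. In that fit 11.2% of all genes were called, so the members' 8.57% lay below the share of all genes, where it lay above it with all libraries.

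**Figure D1:**
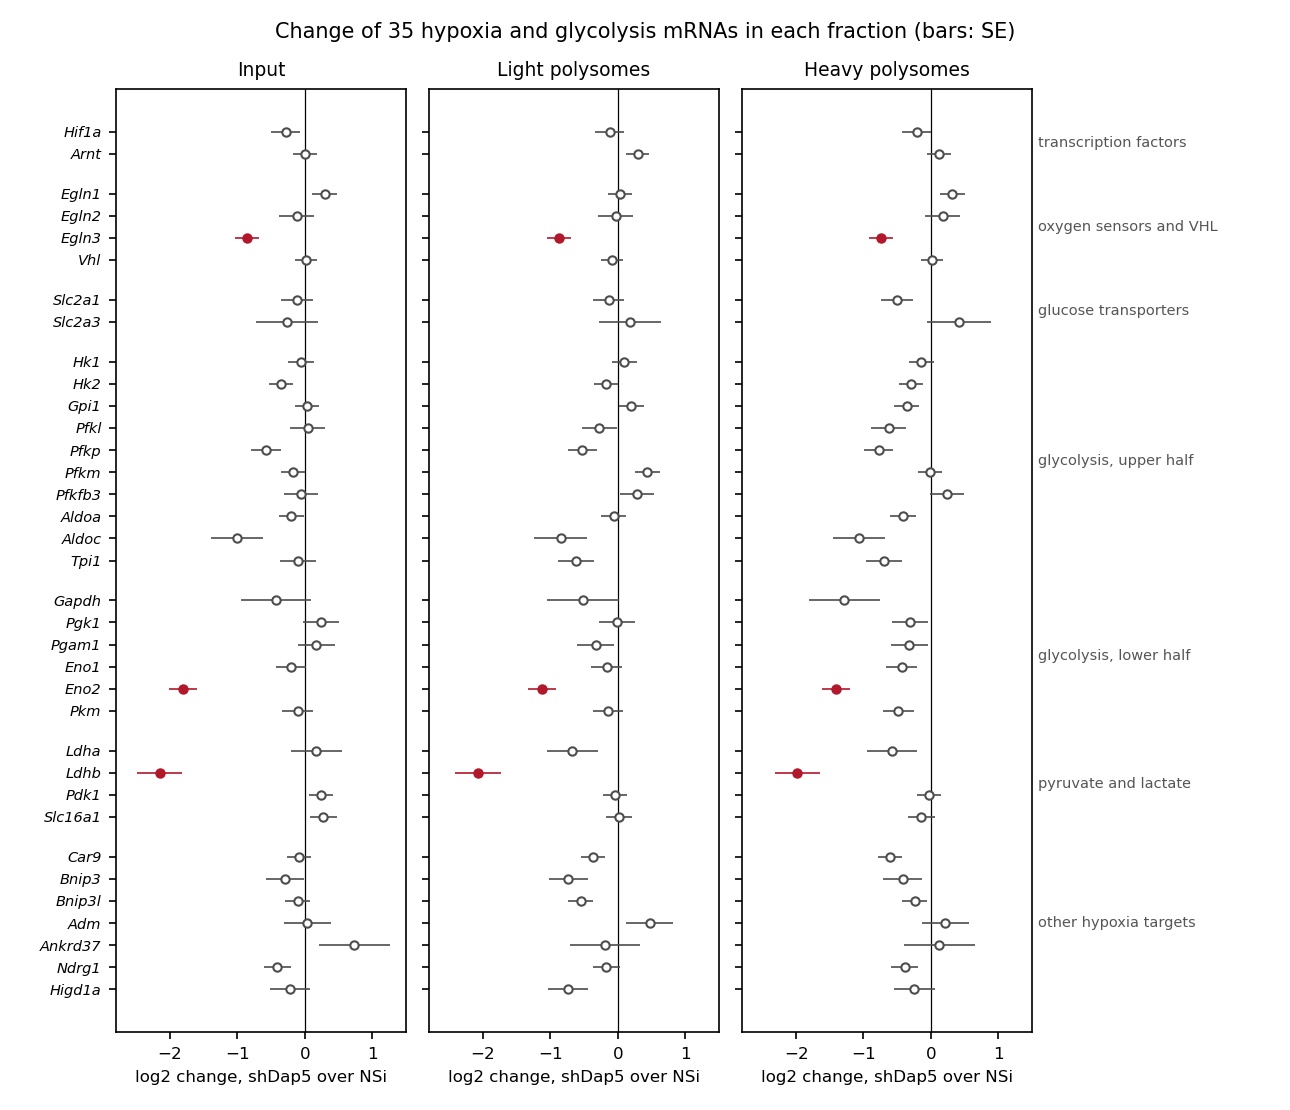
Log2 change of shDap5 over NSi for the 35 tested members in input, light and heavy polysomes, ordered by role; bars are SE, and filled red points passed an adjusted p of 0.05. Egln3, Eno2 and Ldhb are filled in all panels, at -0.74 to -2.15, while the open points cluster near 0 in input and lie mostly to its left on heavy polysomes.

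Among the oxygen sensors, Egln3 was the only prolyl hydroxylase of the 3 called between the arms, and it was lower in shDap5 cells in each fraction. Egln3, whose own transcription is known to be switched on by HIF, stood at 82.8, 57.2 and 88.8 CPM in shDap5 inputs, against 145, 135 and 134 CPM in NSi inputs. On light polysomes it had 129, 104 and 117 CPM in shDap5 and 208, 228 and 207 CPM in NSi libraries. On heavy polysomes it had 138, 102 and 139 CPM in shDap5 and 172, 239 and 221 CPM in NSi libraries. In each fraction every shDap5 library lay below every NSi library. Egln3 fell by 0.86 (SE 0.18, adjusted p = 0.00526) in input, by 0.87 (SE 0.18, adjusted p = 0.00912) on light and by 0.74 (SE 0.18, adjusted p = 0.0236) on heavy polysomes on the log2 scale. Without the second shDap5 input, the log2 change in input was -0.69 (adjusted p = 0.0163). The light call was lost without the second NSi light library (-0.81, adjusted p = 0.0558) or the second shDap5 light library (-0.80, adjusted p = 0.0557). The heavy call was lost without the second NSi heavy library (-0.64, adjusted p = 0.115) or the second shDap5 heavy library (-0.61, adjusted p = 0.0806), and in a fit of the heavy libraries alone (-0.78, adjusted p = 0.19).

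Egln1, the main oxygen sensor of most cells, stood at 176, 126 and 186 CPM in shDap5 inputs, against 135, 129 and 135 CPM in NSi inputs. Those groups overlapped, and its log2 change was 0.29 (SE 0.18, adjusted p = 0.426). Egln2 had log2 changes of -0.12, -0.03 and 0.18 in input, light and heavy, none past the test. Vhl, which carries the hydroxylated subunit to its ubiquitin ligase, had 23.2, 20.3 and 23.9 CPM in shDap5 inputs and 21.3, 21.8 and 23.4 CPM in NSi inputs. Its log2 change in input was 0.02, with a 95% interval of -0.34 to 0.37. The sensors other than Egln3 thus overlapped between the arms in every fraction.

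The transcription factors did not pass the test in any fraction. Hif1a had 260, 226 and 276 CPM in shDap5 inputs, against 311, 275 and 341 CPM in NSi inputs, with 1 value of shDap5 above the lowest of NSi. Its log2 change was -0.28 in input (SE 0.22, adjusted p = 0.534), -0.12 on light and -0.21 on heavy polysomes. With the block within the fraction the input value for Hif1a was -0.28 with an adjusted p of 0.0478. Arnt, the constant partner, had log2 changes of 0.00, 0.29 and 0.12.

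The glucose transporter Slc2a1 (GLUT1), the usual HIF-responsive route of glucose into cells, had 156, 94.9 and 166 CPM in shDap5 inputs and 157, 147 and 149 CPM in NSi inputs. On heavy polysomes it had 191, 136 and 126 CPM in shDap5 and 277, 211 and 152 CPM in NSi libraries. The arms overlapped in both fractions, and the heavy log2 change was -0.50 (SE 0.24, adjusted p = 0.286), or -0.48 with an adjusted p of 0.0253 in the blocked fit.

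In upper glycolysis, from glucose to triose phosphates, 0 of 10 members passed the test in any fraction with edgeR. In input, light and heavy 2, 4 and 5 of them had an unadjusted p under 0.05, against 19.5%, 16.1% and 17.2% of all genes. DESeq2 called 1 of the 10, Pfkp on heavy polysomes, where it called 6.97% of all genes. The log2 change lay below 0 for 8 of the 10 in input, 6 on light and 9 on heavy polysomes. Of all genes 43.7%, 51.8% and 48.4% lay below 0. Values by library are given for the role representatives and, chosen after their values were seen, for Pfkp, Pfkl, Aldoc, Aldoa and Tpi1. Hk2, the hexokinase that traps glucose in many tumours, stood at 132, 116 and 133 CPM in shDap5 inputs, against 185, 142 and 158 CPM in NSi inputs. Those libraries did not overlap, with a log2 change of -0.35 (SE 0.18, adjusted p = 0.289). Hk1, the hexokinase of most tissues, had a log2 change of -0.06 in input.

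Pfkp, the platelet form of phosphofructokinase, which commits sugar to glycolysis, had 149, 167 and 110 CPM in shDap5 heavy libraries, against 289, 297 and 143 CPM in NSi heavy libraries. The third NSi heavy library lay among the shDap5 values. The log2 change of Pfkp was -0.58 in input, -0.53 on light and -0.78 on heavy polysomes, where the adjusted p was 0.0544. In the blocked fit Pfkp was called lower in input (adjusted p = 0.00261), on light (0.00805) and on heavy polysomes (0.000796). Pfkl, the liver form and the most abundant of the 3 phosphofructokinases, stood at a log2 change of 0.04 in input and -0.63 on heavy polysomes (adjusted p = 0.216), and at -0.63 there in the blocked fit (adjusted p = 0.0492). Pfkm, the muscle form, stood at 0.44 on light polysomes (adjusted p = 0.216), and at 0.43 in the blocked fit (adjusted p = 0.027).

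Aldoc, an aldolase best known from brain, had 9.01, 6.05 and 8.36 CPM in shDap5 inputs, against 16.8, 14.6 and 15.7 CPM in NSi inputs. No libraries overlapped there, while on light and heavy polysomes they did. The log2 change was -1.01 in input (SE 0.39, adjusted p = 0.147), -0.85 on light and -1.06 on heavy polysomes (adjusted p = 0.152). In the blocked fit Aldoc was called lower in all fractions, with adjusted p of 0.0136 in input, 0.0307 on light and 0.00859 on heavy polysomes. Aldoa, the main aldolase here, had 4111, 3605 and 3063 CPM in shDap5 heavy libraries, against 5053, 5152 and 4169 CPM in NSi heavy libraries. Those did not overlap, with a log2 change of -0.42 (SE 0.19, adjusted p = 0.268; blocked fit, adjusted p = 0.0325). Tpi1 had 1863, 1238 and 1084 CPM in shDap5 heavy and 2557, 2312 and 1876 CPM in NSi heavy libraries, just without overlap, at -0.69 (adjusted p = 0.18; blocked fit, adjusted p = 0.0122).

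In lower glycolysis, from triose phosphates to pyruvate, Eno2 was the 1 of 6 members called, and it was lower in every fraction. Eno2, the gamma enolase best known from neurons, had 6.91, 9.9 and 6 CPM in shDap5 inputs, against 25.3, 31.3 and 23.6 CPM in NSi inputs. On light polysomes it had 7.75, 8.63 and 6.62 CPM in shDap5 and 13.6, 20.1 and 16.3 CPM in NSi libraries. On heavy polysomes it had 7.6, 7.25 and 7.44 CPM in shDap5 and 17, 23.2 and 19 CPM in NSi libraries. The lowest NSi value of each fraction lay above the highest shDap5 value. Eno2 fell by 1.81 (SE 0.21, adjusted p = 4.18e-05) in input, by 1.12 (SE 0.21, adjusted p = 0.00541) on light and by 1.41 (SE 0.21, adjusted p = 0.00102) on heavy polysomes on the log2 scale. Its mean in shDap5 was 28.5%, 46% and 37.7% of that in NSi cells. Without the second shDap5 input the input change was -2.05 (adjusted p = 2.4e-05).

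Eno1, the enolase of most tissues, had 178, 118 and 206 CPM in shDap5 inputs, against 190, 192 and 197 CPM in NSi inputs. The arms overlapped, with a log2 change of -0.20 in input and -0.44 on heavy polysomes (adjusted p = 0.347; blocked fit -0.45, adjusted p = 0.0307). Pkm had 5254, 4171 and 3240 CPM in shDap5 heavy libraries, against 6974, 6235 and 4472 CPM in NSi heavy libraries. These overlapped, and the heavy change of Pkm was -0.48 (adjusted p = 0.282; blocked fit, adjusted p = 0.033), beside -0.11 in input. Pgk1, the first ATP-making enzyme of the pathway, had 83.4, 44.5 and 81.7 CPM in shDap5 inputs and 53, 63.4 and 60.3 CPM in NSi inputs. The log2 changes of Pgk1 were 0.25 in input and -0.31 on heavy polysomes, and those of Pgam1, a phosphoglycerate mutase, 0.17 and -0.32, none past the test.

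Gapdh is uncertain. It had only 11.1, 17.4 and 13.8 CPM in shDap5 inputs and 12.4, 29.9 and 14.3 CPM in NSi inputs, which put it at rank 26 of the 37 members per kb in both arms. Gapdh has many near-identical processed pseudogenes in the mouse, and how reads shared between copies were counted is not given in the sources used here. Its log2 change was -0.42, -0.52 and -1.28 in input, light and heavy, with SEs of 0.52 to 0.53 and none past the test. In the blocked fit its heavy value was -1.40 (adjusted p = 0.00442). It was -2.32 (adjusted p = 0.0161) on leaving out the second shDap5 heavy library and -0.87 (adjusted p = 0.53) on leaving out the third.

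**Figure D2:**
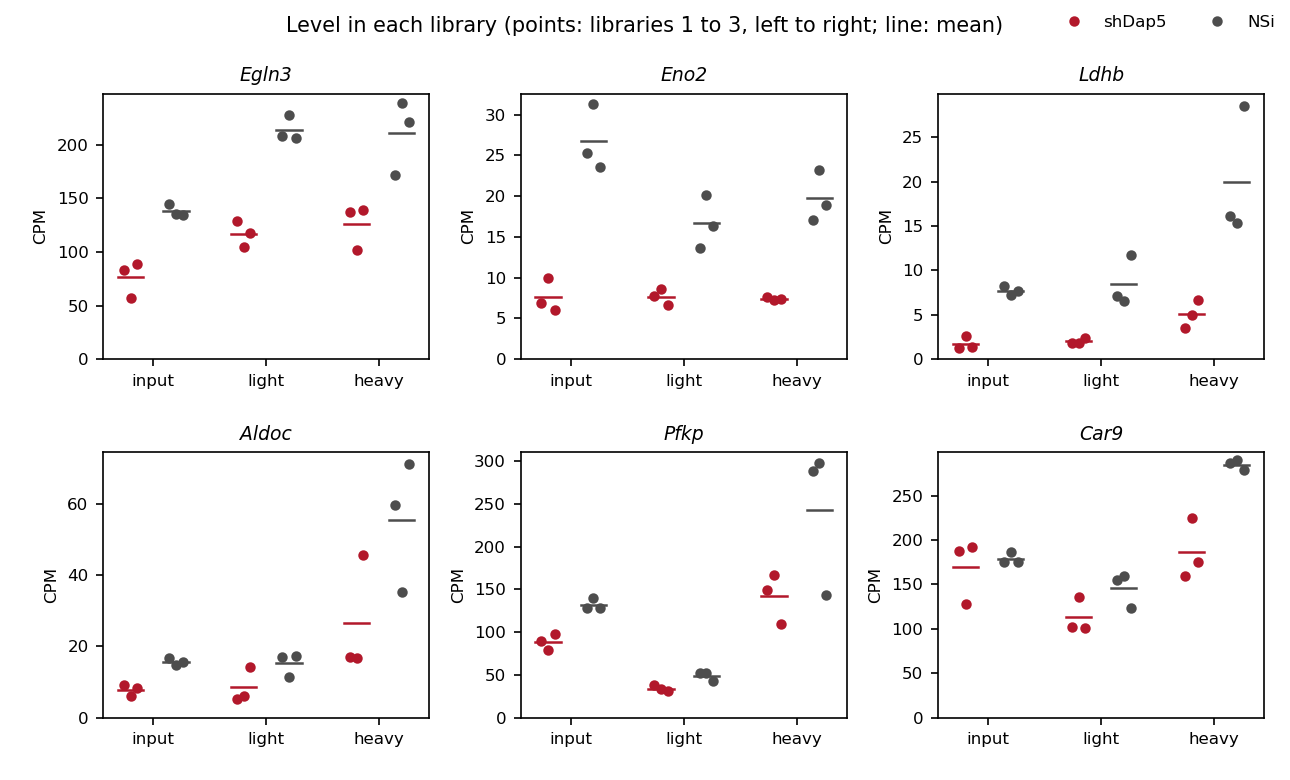
CPM of 6 members in each library, with shDap5 in red and NSi in grey for input, light and heavy polysomes; lines are means of 3 libraries. Egln3, Eno2 and Ldhb in the top row do not overlap between the arms in any fraction, whereas Aldoc, Pfkp and Car9 in the bottom row overlap in at least 1 fraction.

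Among the genes of pyruvate and lactate, Ldhb was called lower in every fraction and Ldha in none. Ldhb makes the heart subunit of lactate dehydrogenase, which is known for favouring the turning of lactate back to pyruvate. It had 1.25, 2.63 and 1.33 CPM in shDap5 inputs, against 8.24, 7.19 and 7.73 CPM in NSi inputs. On light polysomes Ldhb had 1.82, 1.82 and 2.42 CPM in shDap5 and 7.13, 6.6 and 11.7 CPM in NSi libraries, and on heavy polysomes 3.5, 4.94 and 6.72 CPM in shDap5 and 16.1, 15.3 and 28.6 CPM in NSi libraries. The arms were apart in all 3 fractions, at levels low in both. Ldhb fell by 2.15 (SE 0.34, adjusted p = 0.000671) in input, by 2.07 (SE 0.34, adjusted p = 0.00219) on light and by 1.98 (SE 0.33, adjusted p = 0.00217) on heavy polysomes on the log2 scale. This left 22.5%, 23.8% and 25.2% of the NSi level. The heavy call was lost in a fit of the heavy libraries alone (-2.01, adjusted p = 0.053). Without the second shDap5 input the input change was -2.58 (adjusted p = 0.0002).

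Ldha, the muscle subunit and a classic HIF target, had 1254, 450 and 1356 CPM in shDap5 inputs, against 818, 953 and 947 CPM in NSi inputs. The second shDap5 input was the lowest of these libraries and the other shDap5 inputs were the highest. The log2 change of Ldha was 0.17 in input (95% interval -0.64 to 0.99), -0.68 on light and -0.58 on heavy polysomes, with adjusted p from 0.405 to 0.867. Pdk1, the kinase that closes the mitochondrial entry of pyruvate, had 103, 59.1 and 98.6 CPM in shDap5 inputs and 77.9, 69.3 and 73.7 CPM in NSi inputs, with the second shDap5 input again lowest. Its log2 changes were 0.24, -0.05 and -0.03 in input, light and heavy, and those of Slc16a1 0.27, 0.02 and -0.14, none past the test.

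Shares within an isoenzyme family were computed on CPM per kb. How reads shared between gene copies were counted is not given, so shares that involve genes with pseudogenes are uncertain. Ldhb made up 0.144%, 0.843% and 0.142% of Ldha plus Ldhb in shDap5 inputs, against 1.44%, 1.08% and 1.17% in NSi inputs. The second shDap5 input had the lowest Ldha and the highest Ldhb of the shDap5 inputs, and its share still lay below all NSi inputs. Eno2 made up 2.14%, 3.79% and 1.68% of the enolase transcripts (Eno1, Eno2 and Eno3) in shDap5 inputs, against 5.61%, 6.71% and 5.03% in NSi inputs, without overlap. Hk2 made up 30.3% ± 1.58 of Hk1 plus Hk2 in shDap5 inputs and 34.7% ± 2.21 in NSi inputs (SD, n = 3 each). With 3 libraries against 3, the two-sided exact permutation test cannot go below p = 0.1, and these 3 input shares each had p = 0.1 (adjusted p = 0.263 over 21 shares tested). On heavy polysomes the Ldhb share was 0.159%, 0.4% and 0.686% in shDap5 and 0.631%, 0.648% and 1.69% in NSi libraries, which overlapped (exact permutation p = 0.3). It was lower in shDap5 in all 3 same-numbered pairs, where a paired exact permutation test gave p = 0.25, the smallest that 3 pairs allow.

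**Figure D3:**
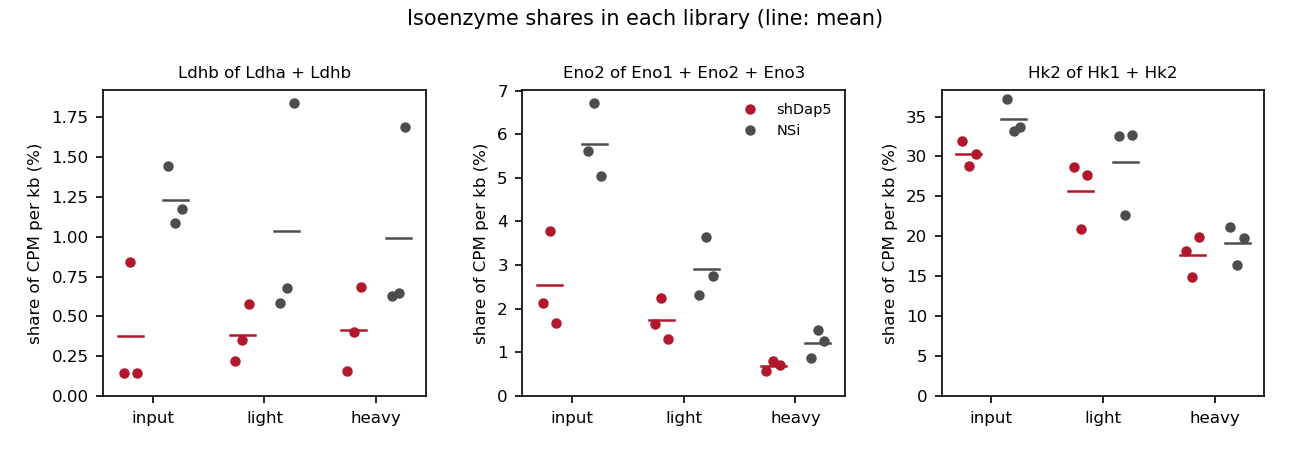
Share of Ldhb, Eno2 and Hk2 in the summed CPM per kb of their isoenzyme family (in percent) for each library of shDap5 (red) and NSi (grey), with means as lines. The Eno2 share of shDap5 lies below that of NSi in all fractions, and the Ldhb share does so in input and on light polysomes.

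The other hypoxia targets gave 0 of 7 members past the test with edgeR in each fraction. At an unadjusted p under 0.05 there were 0, 3 and 1 in input, light and heavy, against 19.5%, 16.1% and 17.2% of all genes. DESeq2 called 1, Car9 on heavy polysomes, where it called 6.97% of all genes. Car9, carbonic anhydrase 9, had 188, 128 and 192 CPM in shDap5 inputs and 175, 186 and 176 CPM in NSi inputs, an overlap. On heavy polysomes Car9 had 159, 225 and 175 CPM in shDap5 libraries, against 286, 290 and 279 CPM in NSi libraries, all apart. Its heavy log2 change was -0.61 (SE 0.18, adjusted p = 0.0625). It was called with DESeq2 (-0.63, adjusted p = 0.0115), in the blocked fit (-0.63, adjusted p = 0.00545) and without the second shDap5 heavy library (-0.77, adjusted p = 0.0339).

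Bnip3, a mitophagy receptor, had 39.3, 20.9 and 29.1 CPM in shDap5 light libraries, against 66.2, 47.1 and 35.4 CPM in NSi light libraries, with overlap. Its log2 change was -0.29, -0.74 and -0.42 in input, light and heavy. Bnip3l, its close relative, stood at -0.55 on light polysomes (adjusted p = 0.115; blocked fit, adjusted p = 0.0132) and Higd1a, a mitochondrial survival factor of low oxygen, at -0.74 (adjusted p = 0.21; blocked fit -0.79, adjusted p = 0.00917). Ndrg1, a gene long used as a marker of hypoxic cells, had 319, 358 and 340 CPM in shDap5 inputs, against 430, 460 and 460 CPM in NSi inputs, without overlap. Its change in input was -0.41 (SE 0.20, adjusted p = 0.279; blocked fit, adjusted p = 0.013). Adm (adrenomedullin) and Ankrd37 had positive changes in input, 0.04 and 0.73, with SEs of 0.35 and 0.53. On light polysomes Adm was at 0.47 (adjusted p = 0.586), or 0.56 in the blocked fit (adjusted p = 0.0262).

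Library by library, the median member lay at -0.03, -0.45 and 0.02 relative to the NSi mean in the 3 shDap5 inputs on the log2(CPM + 0.5) scale. On light polysomes the shDap5 medians were -0.11, -0.29 and -0.12, and on heavy polysomes -0.14, -0.46 and -0.52. The NSi libraries had medians between -0.17 and 0.15, with the spread widest on heavy polysomes. Each NSi library is part of the mean it is set against, which draws its values towards 0, and no shDap5 library is. The first shDap5 heavy library thus lay within the range of the NSi heavy libraries. The median of all genes stayed between -0.05 and 0.06 in every library. In the second shDap5 libraries 32, 28 and 29 of the 35 members lay below 0 in input, light and heavy.

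**Figure D4:**
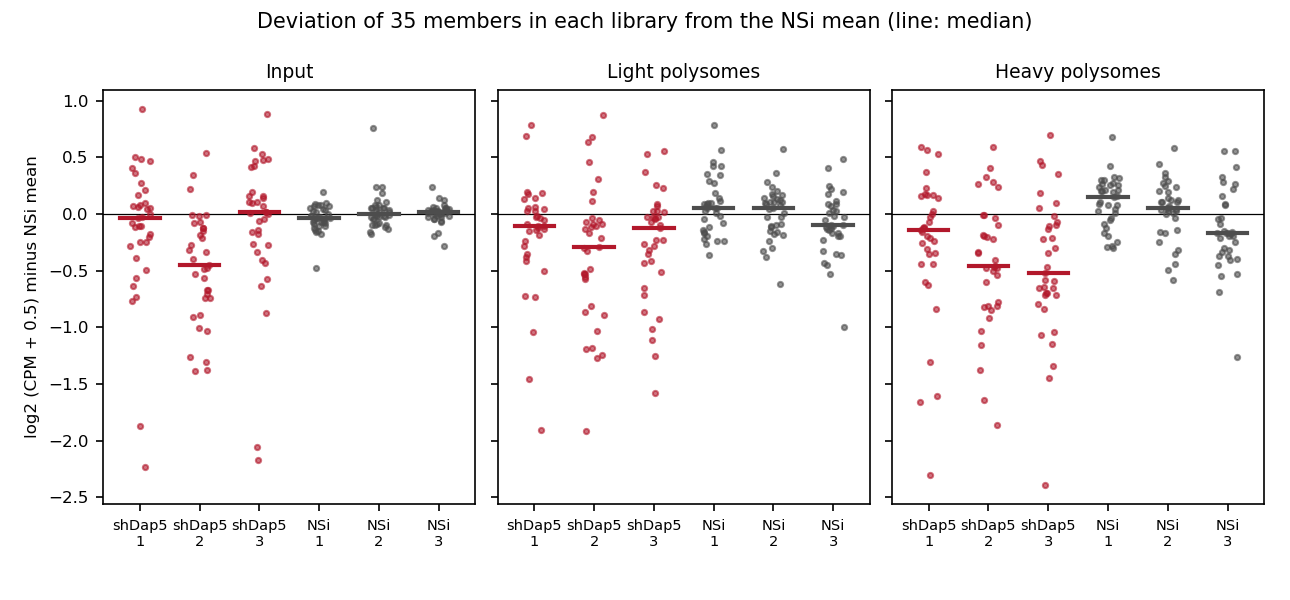
Log2(CPM + 0.5) of each of the 35 tested members minus its NSi mean in the same fraction, 1 point per member and library, with the median as a line; shDap5 libraries are red and NSi libraries grey. The second shDap5 input has a median of -0.45 while the other shDap5 inputs lie near 0, and the second and the third shDap5 heavy libraries lie at -0.46 and -0.52.

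Whether the polysome changes went beyond those in the input was asked as a difference of differences. No member passed the test when heavy or light polysomes were set against input, or heavy against light. None of the fits of these differences paired heavy with light libraries of the same number within an arm. Over all 15072 genes 0% were called, by edgeR and by DESeq2. At an unadjusted p under 0.05 there were 1, 2 and 1 members, where 1.96%, 2.12% and 1.2% of all genes reached it. With the block within the fraction these counts were 8, 5 and 3 members, where 10.4%, 10.8% and 5.73% of all genes reached it. They were 9 for heavy and 8 for light relative to input on leaving out the second shDap5 input, where 9.37% of all genes reached it in either comparison. For Egln3 the heavy change relative to input was 0.12 (95% interval -0.42 to 0.65), for Eno2 0.40 (-0.22 to 1.03) and for Ldhb 0.17 (-0.82 to 1.16) on the log2 scale. These intervals leave room for shifts between fractions of up to about 1 log2 unit for Eno2 and Ldhb. With all libraries and no block, the 4 members under that unadjusted level were Car9 for heavy relative to input (-0.53), Pfkm (0.61) and Eno2 (0.69) for light relative to input, and Gpi1 for heavy relative to light (-0.56). The last of these encodes glucose phosphate isomerase.

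For heavy relative to light, all 10 upper glycolytic members had a value below 0, with a median of -0.24, and so had 5 of the 6 lower ones, with a median of -0.29. Of the other roles, 0 of 4 sensors lay below 0 (median 0.17), 1 of 4 members of pyruvate and lactate (0.05) and 3 of 7 other hypoxia targets (0.31). So did 2 of 2 transcription factors and 1 of 2 glucose transporters. Over all 35 members 22 lay below 0, with a median of -0.16, or -0.24 to -0.09 on leaving out 1 library. Of all genes 48.1% lay below 0, with a median of 0.01. None of these members passed the test. Without the second shDap5 input, no member was called for heavy or light relative to input, while 9 and 8 of all genes were, and the median member lay at -0.28 and -0.16 for the 2 comparisons, against -0.13 and -0.02 with all libraries.

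Within an arm, most members of glycolysis were more abundant on heavy than on light polysomes. In shDap5 cells 18 of the 35 members were higher and 3 lower on heavy polysomes (60%), where 44.5% of all genes were called, 24.3% as higher and 20.2% as lower. In NSi cells 22 were higher and 5 lower (77.1%), where 52.6% of all genes were called, 27% as higher and 25.6% as lower. The median member stood at 0.69 in shDap5 and at 0.97 in NSi cells, beside 0.01 and -0.03 for all genes. These values are shares of each library, so they give an mRNA's place relative to other mRNAs and not the amount of it on ribosomes.

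Of the 10 upper glycolytic members, 8 in shDap5 and 9 in NSi cells were higher on heavy polysomes, and of the 6 members of lower glycolysis 3 and 5 were. Pfkl had 1209, 874 and 863 CPM on heavy and 222, 159 and 192 CPM on light polysomes of shDap5 cells. In NSi cells Pfkl had 1790, 1541 and 1216 CPM on heavy and 239, 254 and 201 CPM on light polysomes. The log2 changes of Pfkl, at 2.36 (SE 0.27) in shDap5 and 2.71 (SE 0.28) in NSi cells, were the largest of the members in both arms, and the heavy and light libraries were far apart. Pfkp followed at 2.06 and 2.31 and Pkm at 1.73 and 2.07 in shDap5 and NSi cells, all past the test. Tpi1 stood at 1.68 and 1.76, Hk1 at 1.67 and 1.91, and Aldoc at 1.65 and 1.86, all called too. Gpi1 and Pgk1 were called in NSi (0.93 and 0.89) and not in shDap5 cells (0.37 and 0.60). Pgk1 was called in shDap5 cells as well with the replicate number as a block within the arm (0.57, adjusted p = 0.0315) or across all groups (0.57, adjusted p = 0.0422), and without the third shDap5 heavy library (0.77, adjusted p = 0.035). The difference between the arms, the test of heavy against light above, was not past the threshold for either gene.

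Egln1 and Egln2 lay the other way. Egln1 had 278, 175 and 254 CPM on heavy and 386, 318 and 372 CPM on light polysomes of shDap5 cells, against 199, 159 and 210 CPM on heavy and 364, 310 and 379 CPM on light polysomes of NSi cells. Heavy and light libraries did not overlap, and Egln1 fell by 0.61 (SE 0.18, adjusted p = 0.0133) in shDap5 and by 0.89 (SE 0.18, adjusted p = 0.000657) in NSi cells on the log2 scale. In shDap5 cells that call was lost without the first light library (-0.54, adjusted p = 0.0519) or the second heavy library (-0.42, adjusted p = 0.082). Egln2 fell too, by 0.86 in shDap5 and 1.07 in NSi cells, whereas Egln3 was at 0.11 in shDap5 and -0.02 in NSi cells. Higd1a had the lowest value of the called members, -1.15 in shDap5 and -1.65 in NSi cells. Eno2 was not called in either arm, at -0.05 in shDap5 and 0.24 in NSi cells, while the other 5 lower glycolytic members were called higher on heavy polysomes in NSi cells. Of the calls in NSi cells, that of Gapdh (1.42, adjusted p = 0.0327) and that of Vhl (-0.40, adjusted p = 0.0496) were each lost on leaving out any one of 5 of the 6 libraries.

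Hif1a was higher on heavy polysomes, at 0.69 in shDap5 (adjusted p = 0.0169) and 0.78 in NSi cells (adjusted p = 0.00652). In shDap5 cells the Hif1a call was lost without the first light library (0.64, adjusted p = 0.0586), without the second heavy library (0.36, adjusted p = 0.158), in a fit of the libraries of that contrast alone (0.62, adjusted p = 0.0841) and without TMM scaling (0.50, adjusted p = 0.0789). In NSi cells the Hif1a call was lost without the second heavy library (0.53, adjusted p = 0.0551). Ldhb and Ldha were higher there too, at 1.33 and 1.32 in shDap5 and at 1.24 and 1.23 in NSi cells. The Ldha call was lost without the first shDap5 heavy library (0.92, adjusted p = 0.067) in shDap5 cells and without the third NSi light library (1.01, adjusted p = 0.0592) in NSi cells.

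**Figure D5:**
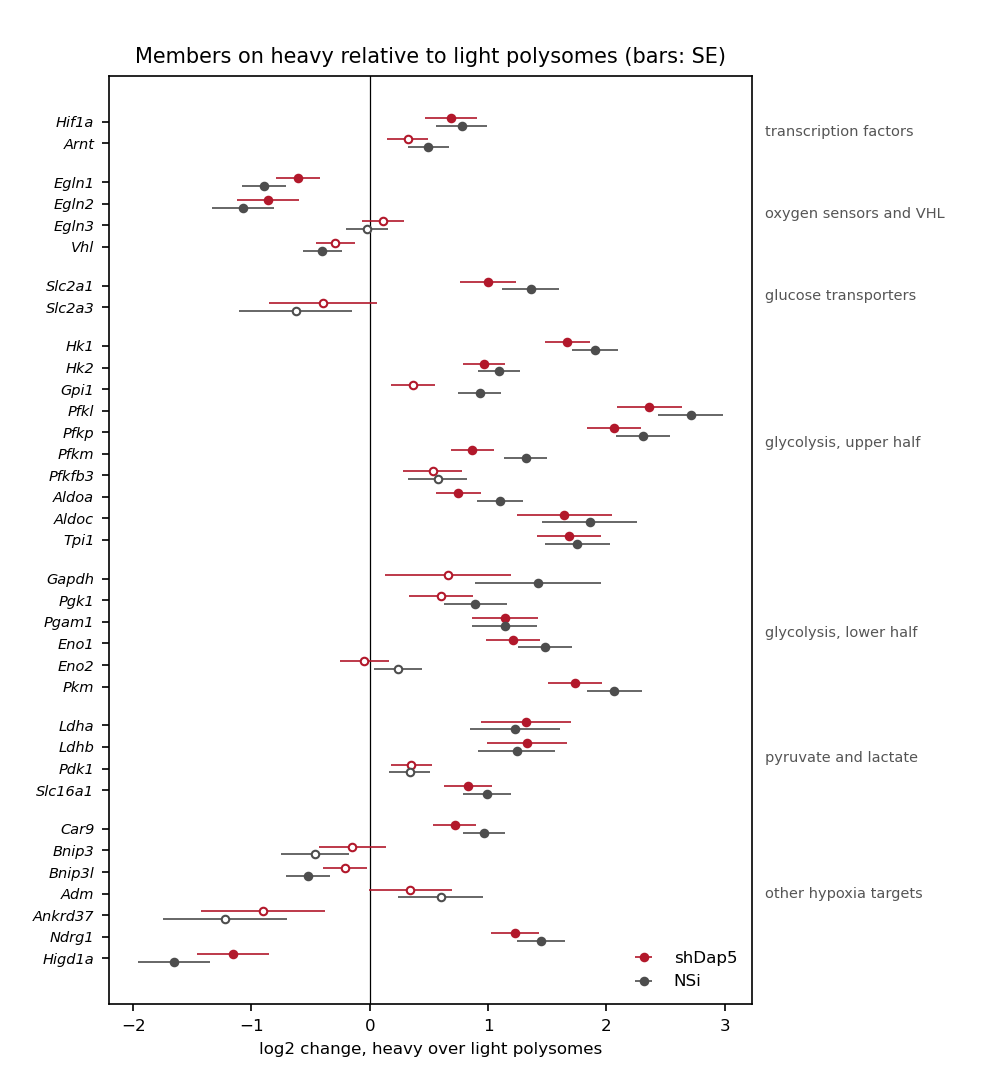
Log2 change of heavy over light polysomes for the 35 tested members in shDap5 (red, upper of each pair) and NSi (grey) cells; bars are SE and filled points passed an adjusted p of 0.05. Most glycolytic members lie to the right, up to 2.71 for Pfkl, while Egln1, Egln2 and Higd1a lie to the left of 0 in both arms.

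Other genes of the pathway were read from 5 further lists that hold no member. The lists were chosen with earlier results of these data known, so their shares beside those of all genes are no independent test. Of 27 tested targets of HIF, 3 were lower and 0 higher in input (11.1% called, against 6.95% of all genes), 1 and 0 on light (3.7% against 3.47%), and 2 and 0 on heavy polysomes (7.41% against 3.95%). DESeq2 called 4 lower and 0 higher in input, 2 and 1 on light, and 5 and 1 on heavy polysomes, where it called 10.3%, 6.6% and 6.97% of all genes. P4ha2, a collagen prolyl hydroxylase, had 7.95, 9.82 and 8.09 CPM in shDap5 inputs, against 28.1, 30.9 and 28.1 CPM in NSi inputs. It fell by 1.75 (SE 0.23, adjusted p = 0.000133) in input and was lower on light (-1.31) and heavy polysomes (-1.53) too. Hilpda, a lipid droplet protein induced by hypoxia, fell by 1.25 and Plod1, a collagen lysyl hydroxylase, by 0.88 in input. Of these, P4ha2 and Plod1 are known for modifying collagen. The medians of the list of HIF targets were -0.10, -0.29 and -0.40 in input, light and heavy, beside 0.05, -0.01 and 0.01 for all genes.

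Of 8 tested glycolytic isoenzymes and regulators outside the members, Eno3, the beta enolase of muscle, was lower in each fraction. It had 67.4, 68 and 70.1 CPM in shDap5 inputs, against 121, 126 and 128 CPM in NSi inputs, and fell by 0.87 (SE 0.14, adjusted p = 0.000786). On light and heavy polysomes its changes were -0.60 and -0.81, both called. Pgm2, a phosphoglucomutase, was lower on heavy polysomes (-0.69, adjusted p = 0.0464). The edgeR calls made up 12.5%, 12.5% and 25% of the list in input, light and heavy, against 6.95%, 3.47% and 3.95% of all genes. With DESeq2 2 of the 8 were lower and 1 higher in input, 2 and 0 on light, and 3 and 0 on heavy polysomes. Over all genes DESeq2 called 10.3%, 6.6% and 6.97%.

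Of 12 tested genes for the entry of pyruvate into mitochondria, Pdk3, another kinase of pyruvate dehydrogenase, was higher in input (0.70, adjusted p = 0.00933). Mpc2, a subunit of the pyruvate carrier, was higher on heavy polysomes (0.79, adjusted p = 0.0171). With edgeR 8.33%, 0% and 8.33% of the 12 were called in input, light and heavy, against 6.95%, 3.47% and 3.95% of all genes. DESeq2 called 1, 1 and 2 of the 12, all higher, where it called 10.3%, 6.6% and 6.97% of all genes. Of 9 tested transport genes, Slc4a4 and Car2 were higher in each fraction. Slc4a4, a sodium bicarbonate transporter, had 26.2, 40.2 and 23.8 CPM in shDap5 inputs, against 6.85, 5.63 and 7.04 CPM in NSi inputs, a log2 change of 2.21 (SE 0.32, adjusted p = 0.000347). Car2, the cytosolic carbonic anhydrase, had 3.73, 2.44 and 3.44 CPM in shDap5 and 0.515, 0.675 and 0.67 CPM in NSi inputs, a change of 2.36 (SE 0.47, adjusted p = 0.00448). With edgeR 22.2% of the 9 were called in each fraction, against the same 6.95%, 3.47% and 3.95% of all genes. DESeq2 called 3 of the 9 higher in input, and 2 higher and 1 lower on light and on heavy polysomes. None of the 12 tested regulators of HIF, among them Hif1an and Hsp90aa1, was called in any fraction with edgeR, and 0, 0 and 1 reached an unadjusted p under 0.05. Of all genes 19.5%, 16.1% and 17.2% reached that level. DESeq2 called 0 of these regulators in each fraction.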

How the data were processed

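The deposited files hold raw, unnormalized counts per gene symbol, made by the authors, 1 file for each of the 18 libraries. Alignment used Bowtie and build mm9, per the submitters' processing notes. Not given in the sources used here are the counting program, its annotation, its use of strand and its treatment of shared reads, so genes with pseudogenes, overlapping genes and antisense genes are uncertain. Of the 35976 symbols, 27 were written as dates and are not named.

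Sample titles gave the groups. The members and gene lists were chosen with earlier results of these data known. By the naming rule, members called between the arms and a fixed representative of each role are given library by library, and up to 3 called genes per comparison are named from each other list.

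All libraries were fitted together in edgeR 4.0.16 (R 4.3.3) with 1 mean per group, TMM scaling, a robust quasi-likelihood fit and 12 residual degrees of freedom. Low genes were removed by filterByExpr (count of at least 10 in enough libraries, total of at least 15). P-values were adjusted by Benjamini-Hochberg over the 15072 genes left, and a gene is called lower or higher, or said to fall or rise, at an adjusted p below 0.05. SE is the size of the log2 change divided by the square root of F, and 95% intervals use 12 degrees of freedom. No label says that replicates were separate cultures, so the p-values measure the spread among these libraries alone, and that spread could be technical. A symbol at 0 counts could stand at up to 3 counts, or 0.0394 to 0.11 CPM by library (counting error only). Pairs of replicates differed by at least 9.57 in chi-square per degree of freedom, so no library was counted as a repeat. Mitochondrial genes took 0.769% to 3.61% of counts.

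All groups share replicate numbers. Over 10308 genes averaging 5 CPM or more, libraries of the same number deviated together within input (correlations 0.138 to 0.376), light (0.545 to 0.795) and heavy polysomes (0.527 to 0.826), and between heavy and light polysomes (0.52 to 0.754). Between input and polysomes the correlations ran from -0.324 to 0.47, so numbers were not taken to pair those. The blocked fit of the report has the number as a block within each fraction.

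Exon lengths are from GENCODE M21, and promoter windows from RefSeq on GRCm38.p6. Isoenzyme shares were tested with scipy 1.17.1. The paired test of those shares was added after the data were seen. The fit was tested on simulated data. Alternatives were RLE scaling, library totals, no filter, blocks by number and within fraction or arm, the libraries of the contrast alone, DESeq2 1.42.0 and each library left out.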

Additional observations from a re-analysis of the deposited data

How the results depend on the processing

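No called value of Eif4g2 or of the 17 role representatives that were tested (of 19) changed sign under any alternative. With the replicate block by number, the members called between the arms numbered 4 in input, 6 on light and 6 on heavy polysomes. With the block within the fraction they numbered 7, 10 and 15. For heavy against light, 24 members were called in shDap5 under either block, and 30 (by number) or 31 (within the arm) in NSi cells. Over all genes, the block by number called 51.4% in shDap5 and 59% in NSi cells, and the block within the arm 50% and 57.6%. Neither the block by number nor the block within the fraction gave a call for the differences between fractions. The block within the arm was not run for those differences. With the libraries of the contrast alone there were 7 calls in input and 1, Eno2, on heavy polysomes. Egln3 (-0.78, adjusted p = 0.19) and Ldhb (-2.01, adjusted p = 0.053) were lost there, where fewer libraries set the spread. DESeq2 called 5 on heavy polysomes, the added ones being Pfkp and Car9. Leaving out 1 library gave 3 in every case in input, between 2 and 3 on light polysomes, and between 2 and 5 on heavy ones. The count of 5 came without the second shDap5 heavy library, where 2 of the 3 original calls were among them. Differences between fractions stayed at 0 members, and heavy against light gave 18 to 23 in shDap5 and 23 to 26 in NSi cells. In those heavy against light fits 33.8% to 43.9% of all genes were called in shDap5 and 43.7% to 52.5% in NSi cells. Over all genes the calls numbered 1047 in input, 523 on light and 595 on heavy polysomes, against 1798, 1013 and 1122 with the block by number and 3330, 2431 and 2765 with the block within the fraction. DESeq2 called 1555, 995 and 1050. The libraries of the contrast alone gave 2218, 219 and 56, and leaving out 1 library gave 486 to 1712, 218 to 393 and 252 to 682. The cause of these differences was not tested. Library totals in place of TMM shift every gene in heavy against light by -0.19 in shDap5 and -0.22 in NSi cells, and the members' medians there were 0.50 and 0.74. The members' median was -0.49 on heavy polysomes without the first shDap5 heavy library, and 0.86 for heavy against light in shDap5 without the third. Depth limits Slc2a3, Epas1 and Slc16a3, which had few counts.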
